A study of Homo sapiens with 12 samples.

Results

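The 10 genes described here are targets of the hypoxia-inducible factors (HIF) that lie outside glycolysis: CA9, CA12, BNIP3, BNIP3L, VEGFA, ADM, EGLN3, P4HA1, NDRG1 and ANKRD37. They were looked up by gene name among the 58735 genes of the deposited table. The list was chosen by the fall of CA9 and BNIP3 after treatment, so the values of these 2 genes are given as a description with no test, and the other 8 are tested among all genes. RNA was sequenced from KGN and COV434 cells, human lines labelled as granulosa cell tumor (GCT), each untreated or treated with 77-39, a selective inhibitor of the mitochondrial deacetylase SIRT3, for 72 h. There were 3 libraries in each of the 4 groups, all labelled wild type, and they are called untreated KGN, 77-39-treated KGN, untreated COV434 and 77-39-treated COV434. The labels give the dose as 10 μm/ml, a unit that can be read in more than 1 way, and they carry the same treatment text on the untreated libraries. The study describes KGN as coming from an adult-type GCT and COV434 from a juvenile-type GCT. No label gives an oxygen level other than a standard humidified incubator, and no label says whether the libraries of a group came from separate cultures, so p-values measure the spread between these libraries only.

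HIF is a pair of proteins, an alpha subunit (HIF1A or EPAS1) and a partner (ARNT or ARNT2). In the presence of oxygen, prolyl hydroxylases of the EGLN family mark the alpha subunit, and the VHL protein then directs it to the proteasome. When oxygen is low the alpha subunit persists, enters the nucleus and binds short DNA elements with the core ACGTG or GCGTG near its target genes. In tumors these targets buffer acid, remove mitochondria, recruit vessels and change the matrix.

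The libraries held 15547851 to 18280415 recovered reads, that is, reads calculated back from gene length and FPKM, the deposited fragment counts scaled to gene length and library size. Mitochondrially encoded genes took 7.3% to 8.81% of reads in KGN and 7.71% to 13.51% in COV434, with the highest share in library 1 of the treated COV434 cells. The granulosa cell markers were mixed. FOXL2, a transcription factor of granulosa cells, was between 0 and 0.0195 FPKM in the 6 libraries labelled KGN and between 11.5 and 14.0 FPKM in the 6 labelled COV434. The 10 granulosa markers summed to 5.37 to 6.25 FPKM in KGN and 21.4 to 26.3 FPKM in COV434, with much of the difference in FOXL2. AMH, a hormone of granulosa cells, was present in both lines (means of 4.55 FPKM in untreated KGN and 8.24 FPKM in untreated COV434), as was the inhibin subunit INHA (1.06 and 4.75 FPKM). CYP19A1 (aromatase) averaged 0.0937 and 0.106 FPKM and INHBA 0.0742 and 0.00485 FPKM there, and the other 5 markers were near or at 0 in both lines, with FSHR, the receptor of follicle-stimulating hormone, at 0 in all 12 libraries. SMARCA4 and SMARCA2, the chromatin remodelling ATPases whose loss is known for COV434, were at 6.51 to 12.6 FPKM and 4.51 to 6.48 FPKM in the libraries labelled COV434. In those labelled KGN they were at 2.25 to 2.6 FPKM and 0.00296 to 0.0087 FPKM. KGN and COV434 therefore stand throughout for the libraries that carry these labels, and every comparison between the lines rests on them.

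Promoters of 7 of the 10 genes were used from the RefSeq table (GRCh38.p14). Each covers 250 bases before and 50 bases after the annotated start of transcription. VEGFA, BNIP3L and NDRG1 were left out, so the shares below describe the 7 genes used and not the full list. The core ACGTG, searched on both strands, was in 4 of the 7 promoters (57.1%), against 21.4% of 35116 promoters in the table. GCGTG was in 3 of the 7 (42.9%), against 36.5% of all. Among 46 promoters of other hypoxia targets outside glycolysis, ACGTG was in 63.0% and GCGTG in 73.9%. Among 21 promoters of glycolysis genes, each core was in 66.7%. The shares of the 7 were below those of these sets for either core, so neither core sets the 7 apart from them. BNIP3 held both cores, CA12 and ADM only GCGTG, and EGLN3 neither within this window. The 4 stretches with ACGTG are shown because they hold this core before the RefSeq start, and their choice did not use the FPKM values. The gene coordinates given further below come from another annotation, GENCODE release 29, whose starts can differ. By those coordinates the CA9, P4HA1 and ANKRD37 stretches lie within the gene and the BNIP3 stretch lies before it. CA9 and BNIP3 are the pair that chose the list. CA12 in KGN and ADM and EGLN3 in COV434, without ACGTG here, were also lower after 77-39 with no overlap. They are written along the gene from 5′ to 3′ on GRCh38.p14, and capitals mark ACGTG or its reverse complement CACGT, which overlap where both are present. The CA9 stretch is chr9:35673890-35673927 on the plus strand, that of BNIP3 is chr10:131982032-131982077 on the minus strand, that of P4HA1 is chr10:73096928-73096972 on the minus strand, and that of ANKRD37 is chr4:185396659-185396722 on the plus strand.
CA9: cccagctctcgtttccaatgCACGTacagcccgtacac
BNIP3: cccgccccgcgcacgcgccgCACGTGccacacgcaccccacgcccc
P4HA1: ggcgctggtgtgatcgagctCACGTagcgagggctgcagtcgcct
ANKRD37: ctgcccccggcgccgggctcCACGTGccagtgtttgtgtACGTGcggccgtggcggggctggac
The core of CA9 lies from 18 to 14 bases before the RefSeq start (positions -18 to -14), and that of P4HA1 at -86 to -82. In BNIP3 the overlapping pair begins at -134, and 4 matches to GCGTG lie around it. ANKRD37 had 3 matches to ACGTG, an overlapping pair that begins at -162 and a single match that begins at -143. A match describes the letters in the window and was not tested as a binding site.

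After 77-39, all 3 treated libraries lay below all 3 untreated libraries for 8 of the 10 genes in KGN and for 7 of the 10 in COV434. CA9 and BNIP3, which chose the list, are in both counts, and CA9, NDRG1 and ANKRD37 did not pass the filter on low values in KGN. Of the genes that passed it, 23.4% did so in KGN and 8.16% in COV434, and nothing is read from the counts against these shares. None of the 10 lay wholly above in either line. In a bulk sample, fewer cells of a type and less RNA per cell cannot be told apart. Differences below are in log2(FPKM + 1), treated minus untreated, with the standard error (SE) and an adjusted p from limma, corrected by the Benjamini-Hochberg method over all genes that averaged 1 FPKM or more in the libraries of a fit. This filter kept 5 of the 10 genes in KGN (CA12, BNIP3, BNIP3L, VEGFA and P4HA1) and 9 in COV434 (all but CA12), so the tested genes are not all members. Among the 4 genes tested in KGN, 3 fell at an adjusted p under 0.05 and none rose, where 16.4% of all genes were called lower. Among the 7 tested in COV434, limma called none at that threshold, where it called 0.0415% of all genes in either direction. At an unadjusted p under 0.05, the threshold used in the study, 5 of the 7 were lower in COV434 and none was higher, against 4.49% of all genes lower.

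In COV434 same-numbered libraries deviated together, and in a fit blocked by library number 4 of the 7 genes fell at an adjusted p under 0.05, where 0.398% of all genes were called lower. These were NDRG1, ADM, EGLN3 and BNIP3L. No label pairs the libraries, so the block rests on a pattern seen in these same data, and these calls depend on it. Voom on the recovered reads called 2 of the 7, NDRG1 and EGLN3. The share of all genes called by voom is not given here, so nothing is read from that count. The median difference of the tested genes was -0.23 in KGN and -0.96 in COV434, beside 0.01 and -0.02 over all genes. Different genes were tested in each line, so the sizes of these medians are not compared between the lines.

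**Figure D1:**
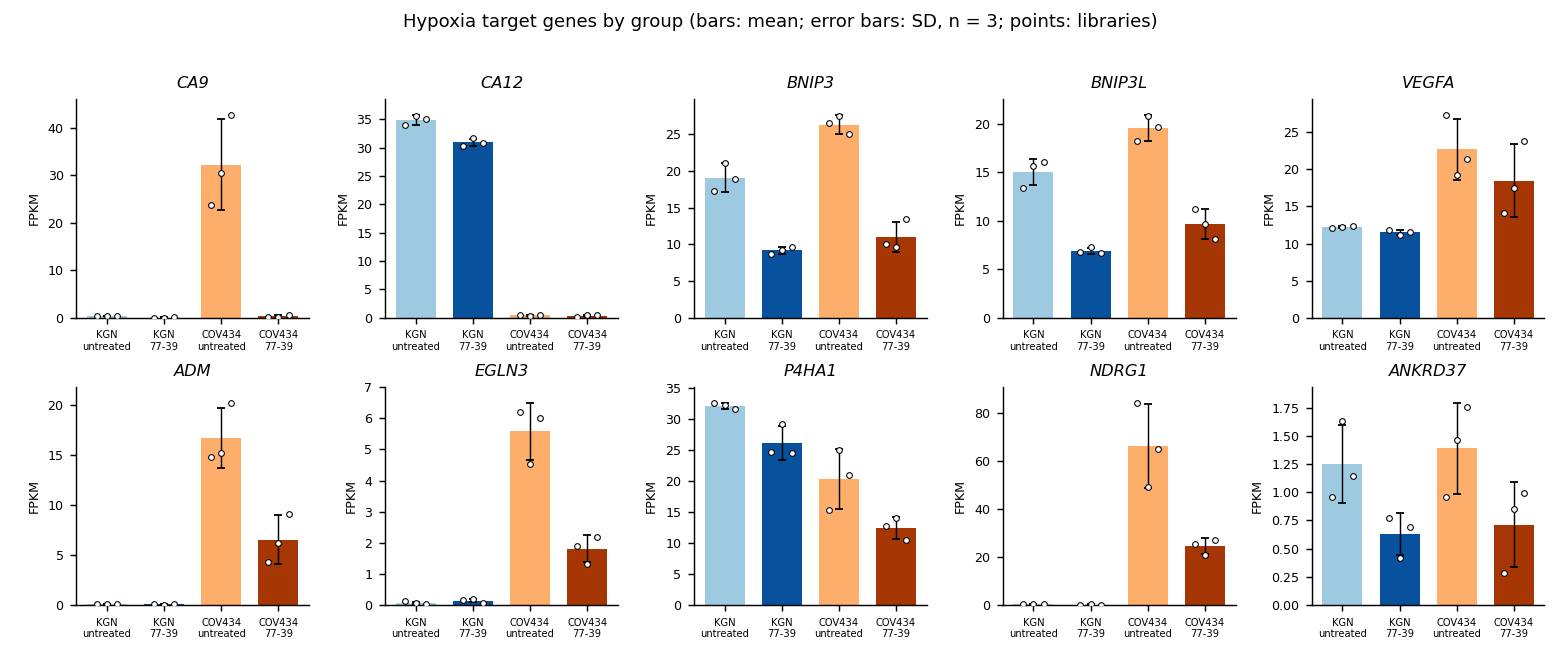
FPKM (vertical axis, linear and from 0, scaled separately for each gene) of the 10 hypoxia target genes in the 4 groups on the horizontal axis. Bars are means, error bars SD (n = 3) and points single libraries. CA9, ADM, EGLN3 and NDRG1 were near 0 in KGN and high in untreated COV434, CA12 the reverse, and BNIP3 and BNIP3L were at similar levels in both lines and lower after 77-39 in each.

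The carbonic anhydrases CA9 and CA12 sit in the plasma membrane with their catalytic side outward and hydrate carbon dioxide, which helps a tumor cell export acid. CA9 (ENSG00000107159) lies on chromosome 9 of GRCh38 from 35673856 to 35681159, and CA12 (ENSG00000074410) on chromosome 15 from 63321378 to 63382161. In untreated COV434, CA9 was at 23.7, 30.4 and 42.6 FPKM, and in treated COV434 at 0.08, 0.0729 and 0.536 FPKM. The groups were far apart, and the treated library 3 was the highest of its group. The reads fell from 2708 to 20, which is 132-fold lower relative to depth (95% interval 85.1 to 216, counting error only), and the difference in log2(FPKM + 1) was -4.74. In KGN the same gene was barely detected, at 0.323, 0.245 and 0.396 FPKM untreated and 0, 0 and 0.0358 FPKM treated. That is 30 reads against 1, 28.4-fold lower with an interval of 4.73 to 1160, and the gene did not pass the filter there. CA9 overlaps ARHGEF39 on the opposite strand, which averaged 2.73 FPKM, and the counting was not stated to use strand.

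CA12 showed the opposite distribution over the lines. It was at 34.0, 35.7 and 35.1 FPKM in untreated KGN and at 30.4, 31.7 and 30.9 FPKM after 77-39. The groups did not overlap, and the small fall of 0.17 on the log2 scale (SE 0.04) had an adjusted p = 0.0209 by limma. Of 13 alternatives, 7 kept that call. In COV434, CA12 was at 0.47, 0.33 and 0.433 FPKM untreated and 0.174, 0.366 and 0.413 FPKM treated, groups that overlapped at a level under the filter.

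BNIP3 and BNIP3L (also called NIX) are related proteins of the outer mitochondrial membrane that bind autophagosomes and mark mitochondria for removal by mitophagy. BNIP3 (ENSG00000176171, chromosome 10 from 131966455 to 131982013) was at 17.2, 21.1 and 18.9 FPKM in untreated KGN and at 8.72, 9.18 and 9.56 FPKM in treated KGN. In COV434 it was at 26.5, 27.5 and 25 FPKM untreated and 10.0, 9.62 and 13.4 FPKM treated. The treated libraries were well below the untreated ones in both lines, with differences of -0.98 and -1.20, and these values helped choose the list. BNIP3 has many processed pseudogenes, and how the authors' counting shared reads among them is not given in the sources used here. The most abundant, BNIP3P11, averaged 1.96 FPKM.

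BNIP3L (ENSG00000104765, chromosome 8 from 26382898 to 26505636), whose values did not choose the list, moved by a similar amount. It was at 13.4, 15.6 and 16.0 FPKM in untreated KGN and at 6.74, 7.23 and 6.68 FPKM in treated KGN. That was 2.18-fold lower, a difference of -1.02 (SE 0.07) with an adjusted p = 0.000281 by limma, and 0.41% of genes had a lower value still. All 13 alternatives kept this call. In COV434, BNIP3L went from 18.2, 20.8 and 19.6 FPKM to 11.2, 9.67 and 8.08 FPKM. No treated library reached the untreated range, and the difference was -0.96 (SE 0.16) with an adjusted p = 0.0925 by limma and 0.0475 with the block. The responses of the lines differed by -0.06 (95% interval -0.42 to 0.29), with an adjusted p = 0.894 by limma over all 12 libraries.

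**Figure D2:**
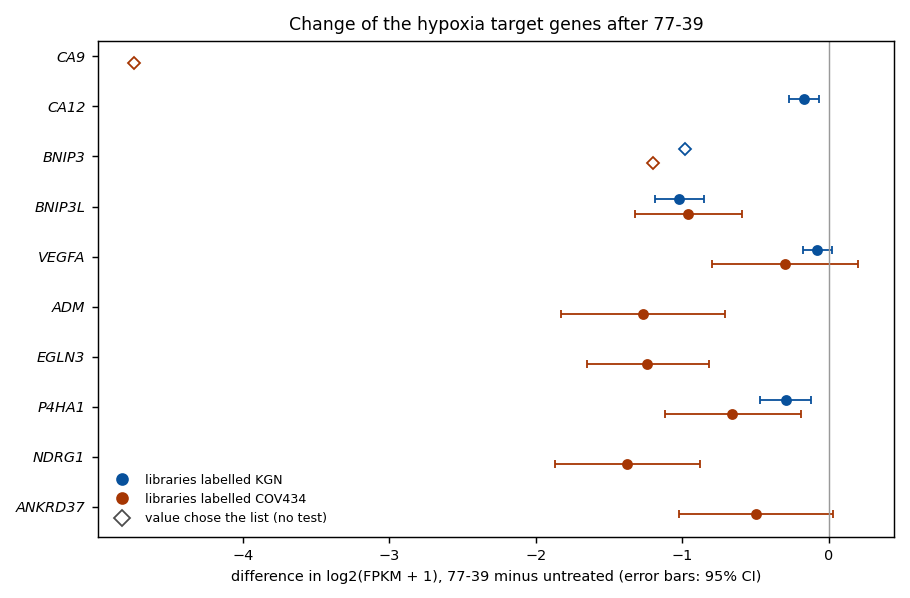
Difference in log2(FPKM + 1), 77-39 minus untreated, on the horizontal axis for each gene that passed the filter, with 95% confidence intervals from limma (3 against 3 libraries). Open diamonds are CA9 and BNIP3, which chose the list and carry no interval. The BNIP3L intervals of the 2 lines overlap (-1.19 to -0.85 in KGN, -1.32 to -0.59 in COV434), while those of VEGFA include 0 in both.

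VEGFA and ADM encode secreted factors, the main growth factor of blood vessels and adrenomedullin, a peptide that widens vessels. VEGFA (ENSG00000112715, chromosome 6 from 43770184 to 43786487) was at 12.1, 12.2 and 12.4 FPKM in untreated KGN and 11.8, 11.1 and 11.5 FPKM in treated KGN. The treated libraries were lower by a small margin, -0.08 with a 95% interval of -0.18 to 0.02 (adjusted p = 0.188 by limma). In COV434, VEGFA was at 27.3, 19.3 and 21.4 FPKM untreated and 14.1, 17.5 and 23.9 FPKM treated, so the groups overlapped, with a difference of -0.30 (interval -0.80 to 0.20, adjusted p = 0.84 by limma). Treated library 1, the one with the highest mitochondrial share, was the lowest of these.

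ADM (ENSG00000148926, chromosome 11 from 10304680 to 10307397) had 10 reads in untreated KGN and 6 in treated KGN, a ratio of 0.633 (95% interval 0.189 to 1.92, counting error only), so a change was not detectable at this depth. In COV434 it was at 14.8, 15.2 and 20.2 FPKM untreated and 4.3, 6.21 and 9.09 FPKM treated. The groups were clearly apart, 2.56-fold lower after 77-39. The difference of -1.27 (SE 0.24) had an adjusted p = 0.131 by limma and 0.0329 with the block, and without treated library 1 it was -1.04 (adjusted p = 0.219 by limma).

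EGLN3 is a prolyl hydroxylase of the HIF alpha subunits and is itself induced by HIF, so it forms part of a feedback loop. EGLN3 (ENSG00000129521, chromosome 14 from 33924231 to 34462774) was at 6.22, 4.52 and 6.0 FPKM in untreated COV434 and at 1.9, 1.32 and 2.17 FPKM after 77-39. It was 3.11-fold lower with no overlap, a difference of -1.24 (SE 0.18) with an adjusted p = 0.0769 by limma and 0.0329 with the block. In KGN it had 27 reads untreated and 53 treated, a ratio of 2.07 (95% interval 1.28 to 3.43, counting error only). Its libraries overlapped there, at 0.11, 0.0557 and 0.0345 FPKM untreated and 0.157, 0.177 and 0.0731 FPKM treated. EGLN3 is annotated over the same stretch and strand as SPTSSA, a gene that averaged 49.5 FPKM, so its low values in KGN are uncertain.

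P4HA1 encodes the catalytic subunit of the collagen prolyl 4-hydroxylase, an enzyme of the secretory pathway that collagen needs to fold. P4HA1 (ENSG00000122884, chromosome 10 from 73007217 to 73096974) was at 32.6, 32.4 and 31.6 FPKM in untreated KGN and 24.7, 29.3 and 24.5 FPKM in treated KGN. The fall of 0.29 on the log2 scale (SE 0.07) had an adjusted p = 0.0205 by limma, and 7 of 13 alternatives kept it under 0.05. In COV434 it was at 15.3, 25 and 21.0 FPKM untreated and 12.7, 14.0 and 10.5 FPKM treated. Again the groups did not overlap, but the untreated libraries were spread, and the difference of -0.66 (SE 0.20) had an adjusted p = 0.379 by limma.

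NDRG1, a cytoplasmic protein linked to stress and differentiation, and ANKRD37, a small ankyrin repeat protein, complete the list. NDRG1 (ENSG00000104419, chromosome 8 from 133237171 to 133302022) was the most abundant of the 10 in untreated COV434 on the FPKM scale, at 84.1, 49.1 and 65.0 FPKM, and was at 25.4, 20.7 and 27.1 FPKM after 77-39. It was 2.71-fold lower with no overlap, a difference of -1.38 (SE 0.22) with an adjusted p = 0.0769 by limma and 0.0257 with the block. In KGN it was at 0.362, 0.262 and 0.29 FPKM untreated and 0.129, 0.168 and 0.116 FPKM treated, under the filter. The reads there went from 166 to 71, a ratio of 0.451 (95% interval 0.337 to 0.6, counting error only), beside a ratio of 0.374 (0.366 to 0.381) in COV434. With the filter at 0.1 FPKM the KGN difference was -0.20 (SE 0.07, adjusted p = 0.124 by limma).

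ANKRD37 (ENSG00000186352, chromosome 4 from 185396021 to 185400628) was low in both lines. It was at 0.962, 1.63 and 1.14 FPKM in untreated KGN and 0.769, 0.418 and 0.695 FPKM in treated KGN, without overlap. In COV434 it was at 0.959, 1.46 and 1.76 FPKM untreated and 0.285, 0.85 and 0.997 FPKM treated, with an overlap between the lowest untreated and the highest treated library. The read ratios were 0.51 (0.389 to 0.664) in KGN and 0.528 (0.407 to 0.682) in COV434. The test in COV434 gave -0.50 (interval -1.02 to 0.03, adjusted p = 0.659 by limma). ANKRD37 overlaps UFSP2 on the opposite strand, which averaged 5.62 FPKM.

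Before treatment the lines differed in which of these genes they used. In the comparison of untreated KGN with untreated COV434, 36.4% of all genes were called lower in KGN and 32.6% higher, so most genes differed between these lines. NDRG1 was 217-fold, ADM 249-fold and EGLN3 83.7-fold lower in mean FPKM in KGN, with differences of -5.65, -4.04 and -2.62. CA12 was 84.9-fold higher in KGN (difference 4.67). These 4 genes passed the filter only through the line where they are high, so their differences are given without a test. Smaller differences were found for VEGFA, lower in KGN by 0.83 (SE 0.13), for P4HA1, higher by 0.66 (SE 0.17), and for BNIP3L, -0.36 (SE 0.10), with adjusted p = 0.00143, 0.0126 and 0.017 by limma. Voom did not call BNIP3L (adjusted p = 0.167). ANKRD37 did not pass the test (-0.09, interval -0.49 to 0.32, adjusted p = 0.661 by limma). CA9 was 100-fold lower and BNIP3 1.38-fold lower in KGN, given without a test.

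By mean FPKM in untreated KGN the order from the top was CA12 (34.9 ± 0.818, SD, n = 3), P4HA1 (32.2 ± 0.495), BNIP3 (19.1 ± 1.99), BNIP3L (15.0 ± 1.35) and VEGFA (12.2 ± 0.164), with ANKRD37 at 1.25 ± 0.348 and the other 4 under 1. In untreated COV434 it was NDRG1 (66.1 ± 17.5), CA9 (32.2 ± 9.61), BNIP3 (26.3 ± 1.27), VEGFA (22.7 ± 4.18), P4HA1 (20.4 ± 4.86), BNIP3L (19.5 ± 1.34), ADM (16.7 ± 3.0), EGLN3 (5.58 ± 0.924), ANKRD37 (1.39 ± 0.405) and CA12 (0.411 ± 0.0728). In KGN the libraries of the leading 5 did not overlap with those of their neighbors in this order. In COV434 each neighboring pair from CA9 to ADM overlapped, while NDRG1 lay above CA9 in every library. After 77-39 NDRG1 had the highest mean in COV434 (24.4 ± 3.29), with libraries that overlapped those of VEGFA (18.5 ± 4.96), and CA9 had the lowest (0.23 ± 0.265), overlapping CA12 (0.318 ± 0.127).

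Whether 77-39 moved these genes differently in the lines was tested as the interaction of line and treatment over 12 libraries, given as the KGN response minus the COV434 response. EGLN3 (1.33, SE 0.19, adjusted p = 0.00483 by limma), NDRG1 (1.18, SE 0.23, adjusted p = 0.0224) and ADM (1.24, SE 0.27, adjusted p = 0.0328) had values above 0. These 3 genes passed the filter over 12 libraries only through COV434 and were at 0.362 FPKM or less in every KGN library, where a fall in log2(FPKM + 1) can hardly show. The size of these values therefore depended on the scale and the filter, and a different relative response is not read from them. Voom on the recovered reads, which does not add 1 FPKM, gave NDRG1 0.27 (adjusted p = 0.861), ADM 0.78 (adjusted p = 0.823) and EGLN3 2.70 (adjusted p = 0.0579). EGLN3 thus lay further above 0 there, without a call, and its few KGN reads are uncertain. BNIP3L, VEGFA and P4HA1, which passed the filter in both lines, were not called (differences of -0.06, 0.22 and 0.36), nor was CA12 (-0.07). Of the 3 genes tested in both lines, BNIP3L and P4HA1 were lower at an unadjusted p under 0.05 in each, as were 1.49% of all genes tested in both.

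The rest of the pathway was read from a list of 57 other hypoxia targets outside glycolysis. In KGN 35 of them were tested, and 15 fell and 4 rose at an adjusted p under 0.05, against 16.4% of all genes lower and 17.6% higher, with a median difference of -0.19. Lowered genes were found among the histone demethylases and transcription regulators (4 of 8, none higher), the matrix and secretory enzymes (4 of 9, 2 higher), the lipid, glycogen and nucleotide genes (2 of 4) and the growth and survival genes (4 of 11, 2 higher). The matrix and secretory group as listed also holds GBE1, a glycogen branching enzyme, which was not called. Neither of the 2 secreted or vascular factors tested was called. In COV434 none of 47 was called by limma after adjustment, and 20 were lower and 3 higher at an unadjusted p under 0.05, against 4.49% and 3.52% of all genes. The median there was -0.34. With that block, 3 of the 47 fell at an adjusted p under 0.05, and without untreated library 3 the number at an unadjusted p under 0.05 was 12 in place of 23.

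The 4 lowered targets with the smallest p in KGN were FAM162A, HILPDA, MIR210HG and PLOD1. FAM162A, a mitochondrial protein, was at 16.5, 17.1 and 17.2 FPKM untreated and 9.12, 9.5 and 9.34 FPKM treated (-0.80, SE 0.04, adjusted p = 0.000139 by limma). HILPDA, an inhibitor of triglyceride breakdown in lipid droplets, was at 16.2, 16.9 and 17.2 FPKM and then 8.2, 8.09 and 7.08 FPKM (-1.02, SE 0.06, adjusted p = 0.000183 by limma). MIR210HG, the host transcript of the hypoxia microRNA miR-210, had the steepest fall of the 4, from 2.77, 4.36 and 3.66 FPKM to 0.19, 0.245 and 0.387 FPKM. It was 13.1-fold lower in mean FPKM (-1.84, SE 0.14). MIR210HG passed the filter there only through the untreated libraries, so this difference is given without a test, though the counts of lowered targets include it. PLOD1, a lysyl hydroxylase of collagen, fell from 42.7, 53.6 and 51.2 FPKM to 25.6, 26.7 and 27.0 FPKM (adjusted p = 0.00077 by limma).

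The 4 raised targets in KGN were QSOX1, TMEM45A, HIGD1A and LOX. QSOX1, a secreted enzyme that forms disulfide bonds, went from 6.6 ± 0.486 to 8.8 ± 0.229 FPKM (SD, n = 3), and LOX, which cross-links collagen, from 4.48 ± 0.604 to 5.87 ± 0.174 FPKM. TMEM45A, a transmembrane protein, rose by 0.28 and HIGD1A, a mitochondrial protein, by 0.29 on the log2 scale. The adjusted p-values by limma were 0.00406, 0.0236, 0.00758 and 0.0114 for QSOX1, LOX, TMEM45A and HIGD1A. These rises were between 1.23-fold and 1.33-fold in mean FPKM. In COV434, TMEM45A and LOX were lower at an unadjusted p under 0.05 (differences of -0.76 and -0.48), and the responses of the lines differed for both (adjusted p = 0.00378 and 0.0394 by limma).

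In COV434 the 4 lower targets with the smallest p were SPAG4, PPP1R3C, BHLHE40 and TMEM45A, none of them called after adjustment by limma (adjusted p = 0.0889, 0.126, 0.136 and 0.147). SPAG4, a protein of the nuclear envelope, was at 5.71, 5.99 and 7.12 FPKM untreated and 1.76, 3.05 and 1.55 FPKM treated. PPP1R3C, which directs a phosphatase to glycogen, was at 32.4, 36.8 and 37.9 FPKM and then 15.3, 19.2 and 21.9 FPKM, and it had no read in KGN. BHLHE40, a transcription repressor of the circadian clock, was at 60.2, 55.5 and 69.2 FPKM and then 32.2, 34.3 and 38.5 FPKM. With the block, PPP1R3C and BHLHE40 passed (adjusted p = 0.0369 and 0.0393 by limma), as did FAM162A (0.0475). Higher targets at an unadjusted p under 0.05 included the adenosine receptor ADORA2B (9.77 to 13.2 FPKM on average) and the growth factor PDGFB (3.99 to 5.42 FPKM), both in the secreted and vascular group.

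**Figure D3:**
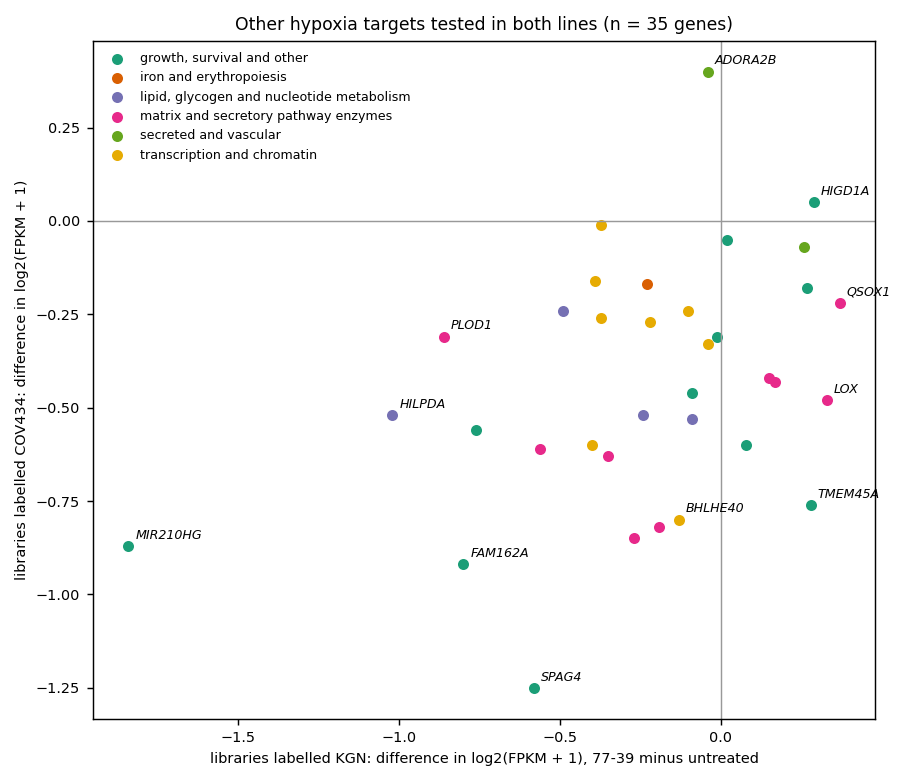
Each point is 1 of the 35 other hypoxia targets tested in both lines, with the difference in log2(FPKM + 1), 77-39 minus untreated, in KGN on the horizontal axis and in COV434 on the vertical axis, colored by role. Most points lie below 0 on the vertical axis. MIR210HG (-1.84 and -0.87), FAM162A (-0.80 and -0.92) and HILPDA (-1.02 and -0.52) are low in both lines, and QSOX1, LOX and TMEM45A are above 0 in KGN and below 0 in COV434.

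At an unadjusted p under 0.05, 11 of the 35 targets tested in both lines were lower in each: LOXL2, PLOD2, GBE1, FUT11, CITED2, BHLHE40, HILPDA, DDIT4, FAM162A, SPAG4 and MIR210HG. The background for this count is 1.49% of genes. For comparison, of the glycolysis genes tested, 16 of 18 fell in KGN at an adjusted p under 0.05 (median -0.65), and 13 of 21 were lower in COV434 at an unadjusted p under 0.05 (median -0.55). In the interaction, 7 of 46 other targets were called, all with a KGN response minus COV434 response above 0. A value above 0 can mean a smaller fall in KGN, and 1.85% of all genes were called in this direction. The count was 1 to 10 with 1 library left out (1 without KGN untreated library 2 or KGN treated library 1 or 2), and among the 7, PPP1R3C and VLDLR did not pass the filter in KGN.

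Of the 9 regulators of HIF itself, 7 were tested in KGN, where 1 fell and 2 rose at an adjusted p under 0.05, and 7 in COV434, where 1 fell. The gene called in COV434 was ARNT2, which passed the filter there only through the untreated libraries, so nothing is read from that call. Over all genes, 16.4% were called lower and 17.6% higher in KGN and 0.0415% in either direction in COV434, so the counts in KGN are near the background. HIF1A was at 21.5, 22.4 and 23.2 FPKM in untreated KGN and 20.0, 20.6 and 20.2 FPKM after 77-39 (-0.14, SE 0.04, adjusted p = 0.0521 by limma). In COV434 it was spread widely, at 50.7, 81.7 and 68.2 FPKM and then 59.0, 50.1 and 28.4 FPKM, with overlap (adjusted p = 0.719 by limma). EPAS1, the other alpha subunit, was at 25.4 to 40.5 FPKM in untreated COV434 and at 0.096 to 0.195 FPKM in untreated KGN, so the alpha subunits differed in level between the lines (a difference of -4.77, without a test because EPAS1 passed the filter only through COV434). It did not pass the test after 77-39 in COV434 (adjusted p = 0.824 by limma). HIF3A had almost no reads.

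ARNT, the usual partner, kept a level of 10.7 to 11.7 FPKM in the 4 group means (adjusted p = 0.431 in KGN and 0.999 in COV434 by limma). ARNT2, its paralog, was at 7.61, 4.99 and 6.9 FPKM in untreated COV434 and at 0.846, 0.826 and 0.889 FPKM after 77-39, a difference of -2.00 (SE 0.17). It passed the filter within COV434 only through the untreated libraries, so this difference is given without a test. In KGN it went the other way, from 2.26, 2.46 and 2.3 FPKM to 3.23, 3.16 and 2.87 FPKM (0.29, SE 0.06, adjusted p = 0.0144 by limma). The responses differed by 2.29 (SE 0.17, adjusted p = 0.000195 by limma).

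VHL, which takes HIF alpha to the proteasome, rose in KGN from 48.6, 48.6 and 46.4 FPKM to 73.4, 72.1 and 70.0 FPKM (0.58, SE 0.04, adjusted p = 0.000355 by limma). In COV434 its groups overlapped, with means of 24.7 and 26.7 FPKM (adjusted p = 0.972 by limma), and the difference between the lines did not pass the test (adjusted p = 0.337 by limma). EGLN1, the main HIF prolyl hydroxylase in oxygenated cells, fell in KGN from 9.74 ± 0.421 to 7.23 ± 0.342 FPKM (SD, n = 3, adjusted p = 0.00256 by limma). In COV434 it was at 21.6 ± 4.22 untreated and 13.2 ± 1.4 FPKM treated without overlap (adjusted p = 0.272 by limma, 0.0738 with the block). EGLN2, a further prolyl hydroxylase, and HIF1AN, which hydroxylates an asparagine of HIF alpha, did not pass the test in KGN (adjusted p = 0.922 and 0.337 by limma), nor did HIF1AN in COV434 (adjusted p = 0.935).

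**Figure D4:**
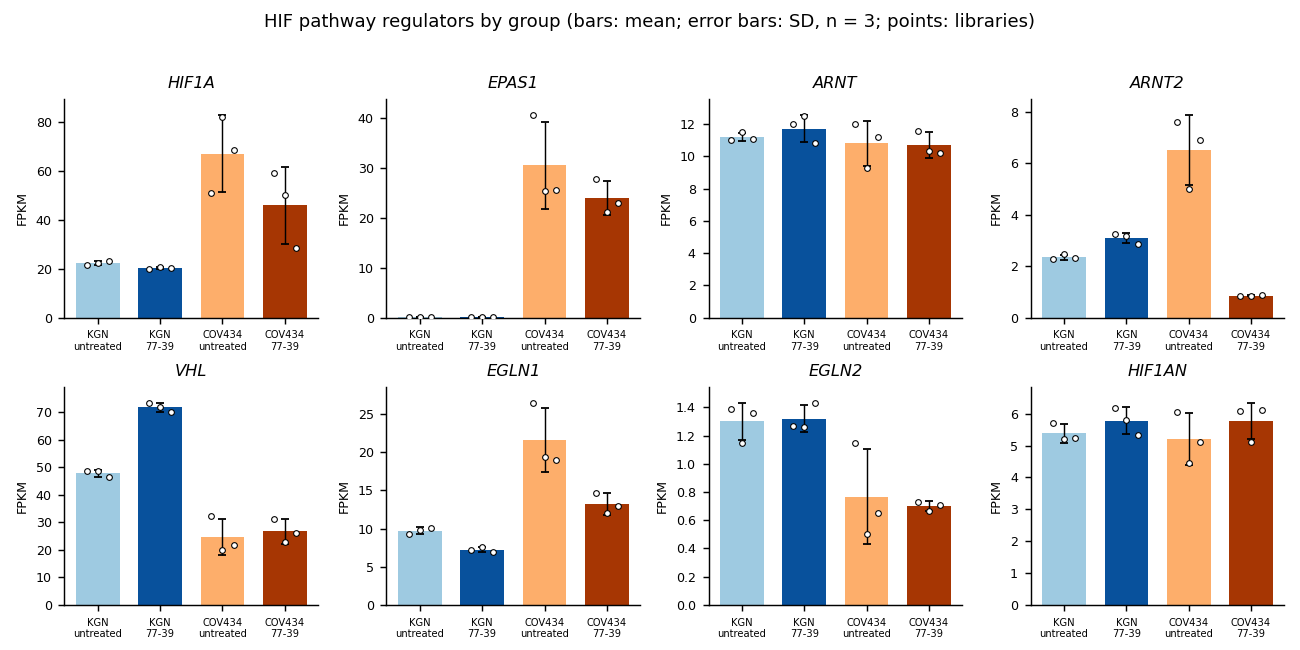
FPKM (vertical axis, linear and from 0, scaled separately for each gene) of 8 HIF pathway regulators in the 4 groups. Bars are means, error bars SD (n = 3) and points single libraries. EPAS1 is near 0 in KGN, ARNT2 drops to 0.853 FPKM in treated COV434, and VHL is at 71.8 FPKM in treated KGN against 47.9 FPKM untreated.

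The genes whose levels ran most like CA9 and BNIP3 over the 12 libraries were ranked by Pearson correlation of log2(FPKM + 1) among 13126 genes, as a description, since the libraries share lines and treatments. For CA9 they were HERC3 (r = 0.935), PALMD (0.932), EIF4B (0.932), SLC6A8 (0.929) and CUL4A (0.926), all highest in untreated COV434. For BNIP3 they were FBXO43 (r = 0.947), FAM210A (0.941), BNIP3L (0.933), ITPKA (0.932) and GINS4 (0.907). BNIP3L thus ranked 3 of 13126 for BNIP3, while the other members compared ranked from 55 (CA9) to 9357 (CA12). Among the 8 other members that passed the filter over 12 libraries, ANKRD37 not being one, EGLN3 was closest to CA9 (r = 0.856, rank 30) and CA12 farthest (r = -0.569). As CA9 and BNIP3 chose the list, nothing is read from these ranks.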

How the data were processed

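Per the sample titles, the libraries came from treated and untreated KGN and COV434 cells, 3 per group. The extraction text of the labels speaks of retinas instead. Total RNA was made into TruSeq libraries and sequenced, per the labels. The submitters' notes name HISAT2 2.0.5 with the mouse builds mm10 and mm8, while all 58735 genes in the table match human release 29 of GENCODE on GRCh38. The counter and its strand setting are not given in the sources used here. The authors deposited FPKM, normalized for gene length and library size. Reads were recovered from FPKM and gene length, and all values came out whole within 0.05. Genes averaging 1 FPKM or more in the libraries of a fit were tested on log2(FPKM + 1) with limma 3.58.1 (lmFit, eBayes with a trend, two-sided) in R 4.3.3, within each line, between untreated lines, and as the interaction over 12 libraries. P-values were adjusted by Benjamini-Hochberg over all genes, with a threshold of 0.05, and intervals cover 95%. Read ratios carry exact intervals for counting error only. No library was identical to another.

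The members and gene lists were chosen with earlier results of these data known. Named genes were the 10 members, the 9 HIF regulators, in each line up to 4 lower and 4 higher of the other targets by smallest p, and the 5 genes most correlated with CA9 and with BNIP3. The values of 1 gene that this rule names are not reported here. Deviations of same-numbered libraries correlated at 0.4, 0.474 and 0.166 in COV434, so the numbers were taken to pair the libraries there, and at -0.0164, -0.018 and -0.019 in KGN. Alternatives tried were voom on recovered reads, 1 fit of 12 libraries, a fit blocked by library number, adding 0.1 instead of 1, filtering at 0.1 FPKM or not at all, scaling by median ratios, and leaving out each library. The fits were tested on simulated data. Promoter sequences came from RefSeq (GRCh38.p14). Figures were drawn with matplotlib 3.10.9.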

Additional observations from a re-analysis of the deposited data

Results flagged for a closer look

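Among the 10 genes, 3 had an adjusted p under 0.05 in the interaction of line and treatment by limma over 12 libraries. The KGN response minus the COV434 response was 1.33 for EGLN3 (adjusted p = 0.00483), 1.18 for NDRG1 (adjusted p = 0.0224) and 1.24 for ADM (adjusted p = 0.0328), in log2(FPKM + 1). The 3 genes were close to absent in KGN, with 27, 166 and 10 recovered reads in the 3 untreated libraries together. For NDRG1 the treated over untreated read ratio was 0.451 (95% interval 0.337 to 0.6) in KGN and 0.374 (0.366 to 0.381) in COV434. For EGLN3 it was 2.07 (1.28 to 3.43) in KGN and 0.326 (0.298 to 0.356) in COV434, and for ADM 0.633 (0.189 to 1.92) and 0.402 (0.371 to 0.434). These intervals cover counting error only. The 3 genes passed the filter only through COV434, and on the scale of voom none of the 3 passed the test (adjusted p = 0.0579 for EGLN3, 0.861 for NDRG1 and 0.823 for ADM). For EGLN3 the read ratios of the lines went in opposite directions, but its libraries overlapped in KGN, where its low values are uncertain. A different relative response is therefore not read from any of the 3.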

How the results depend on the processing

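In KGN, 3 members were called in the fit as reported, 1 in 1 fit of 12 libraries, 2 with a replicate block (the library number), and 1 to 3 with 1 library left out (1 without untreated library 2, untreated library 3 or treated library 1). CA12 had an adjusted p = 0.0596 with the block. In COV434, 0 were called as reported, 5 in 1 fit of 12 libraries, 4 with the block, 2 by voom, and 0 with any 1 library left out. For the other targets, 1 fit of 12 libraries called 9 in place of 19 in KGN and 10 in place of 0 in COV434, where the block called 3. No share of all genes is given for voom or for 1 fit of 12 libraries, so their counts stand without a background. At an unadjusted p, 12 to 21 of them passed in COV434 with 1 library left out against 23, the lowest without untreated library 3. In the interaction, 3 members and 7 other targets were called as reported. Members called were 1 with a pseudocount of 0.1, 1 with no filter, 0 by voom, 3 with the block and 1 to 3 with 1 library left out, where each KGN library, COV434 untreated library 3 and COV434 treated library 2 gave 1, EGLN3. Other targets called were 4 with no filter, 4 by voom, 8 with the block and 1 to 10 with 1 library left out (1 without KGN untreated library 2 or KGN treated library 1 or 2). Small differences that were not called changed sign: CA12 in the interaction was 0.16 with a pseudocount of 0.1 and 0.25 by voom, BNIP3L -0.17 to 0.04 with 1 library left out (0.04 without COV434 treated library 1), and ANKRD37 between untreated lines 0.05 by voom, and -0.23 to 0.02 with 1 library left out (0.00 without KGN untreated library 1, 0.02 without COV434 untreated library 3). The cause was not tested, though fits without a library hold fewer samples. Median-ratio scaling called 6 genes in COV434 in place of 5 (66.7% lower against 80.0%) and moved no median by more than 0.1. The block changed no other call among the members. The KGN members near 0 FPKM are limited by depth.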
